A study of Homo sapiens with 92 samples.

Results

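The first 30 min of mitotic exit were followed in DMSO-treated cells with 6 SLAM-seq libraries, chosen by their titles out of 92 in the series. There were 3 libraries at 0 min and 3 at 30 min after release, each with replicate numbers 2, 3 and 4. All cells were hTERT RPE-1, a human cell line from retinal pigment epithelium made immortal with telomerase, and all came from 1 clone, NIPBL-D7. Its genotype is mGreenLantern-P2A-FKBP12(F36V)-NIPBL, so the cohesin loader NIPBL carried a degron in every library, the DMSO libraries included. Cells went through a double block with 2 mM thymidine and were then held for 120 min with nocodazole at 20 ng/ml, which stops microtubule assembly and arrests cells in prometaphase. DMSO, the vehicle of the degrader dTAGV-1, was present for these 120 min and after release, and mitotic cells were collected by shaking them off. New RNA was labelled with 100 µM 4-thiouridine (4sU) for 15 min, a period that the labels count within the treatment time. The arm with dTAGV-1 had 4 libraries at 0 min and 3 at 30 min, and DMSO was also sampled 4 times each at 60, 90 and 120 min. A further 3 DMSO libraries at 30 min belong to a second series, in which DMSO or dTAGV-1 was given only after release. The replicate numbers are the labels', which do not say whether replicates were separate cultures, so p-values measure the spread between these libraries.

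On entry into mitosis chromosomes condense, most transcription factors and RNA polymerase II leave them, and RNA synthesis drops to a low level. On exit, cyclin B is destroyed, chromosomes separate, the nuclear envelope forms again and polymerases load back onto genes. Cells held in nocodazole first have to build a spindle after the drug is washed out, so they start this sequence with a delay. SLAM-seq reads new RNA as T-to-C conversions, because alkylated 4sU pairs with G during reverse transcription.

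The 6 libraries held 29.7 to 88.9 M reads in genes (M for 1e6 reads), of which 0.984 to 2.47 M carried a conversion. Replicate 4 at 0 min stood apart by the number of genes with at least 1 read, 41353 against 26411 to 34220 in the other 5. Replicate 3 at 0 min had 1.31% of its converted reads in the genes annotated within the ribosomal DNA unit, against 0.00935% to 0.0692% in the other 5. Correlations between libraries ran from 0.916 to 0.979 on the log2 scale, and no 2 libraries were duplicates. Of 15 pigment epithelium markers 6 had enough converted reads for a test, with CDH2, a cadherin, at 340 to 402 CPM (counts of converted reads per 1e6, on scaled library sizes) and PAX6, an eye field transcription factor, at 49.4 to 65.0 CPM. The other 9, among them the visual cycle gene RPE65 and the pigment gene TYR, stayed at or under 4.55 CPM in every library. Markers of cardiomyocytes, neurons, endothelium, fibroblasts and smooth muscle had 1 of 11, 4 of 12, 3 of 7 and 5 of 11 tested members, and pluripotency markers had none of 7. NIPBL was at 409, 331 and 272 CPM at 0 min and at 412, 326 and 319 CPM at 30 min in replicates 2, 3 and 4, and the groups overlapped. The degron acts on the protein, so this level is no check of the drug.

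The share of reads with a conversion differed between the times by less than the spread between libraries. At 0 min it was 2.57%, 3.31% and 2.44% in replicates 2, 3 and 4, and at 30 min it was 2.77%, 2.90% and 2.62%. The means were 2.77% ± 0.473 (SD, n = 3) and 2.76% ± 0.140 (n = 3), and the share was higher at 30 min in 2 of 3 pairs. A two-sided exact permutation test gave p = 1, and with 3 libraries against 3 it cannot go below 0.1. Replicate 3 at 0 min, the highest of the 6, set the sign, and without replicate 3 the difference was 0.193 percentage points in place of −0.0104. The T-to-C rate over all T positions was 0.0734% ± 0.0175 at 0 min and 0.0717% ± 0.00699 at 30 min (n = 3 each). A converted read carried 1.31 ± 0.109 conversions at 0 min and 1.30 ± 0.0825 at 30 min. These were 3 of 13 measures of whole libraries tested in this way, and each had an adjusted p of 1. No library without 4sU was analysed here, so how much of these shares is background is not known. Each of these means rests on 3 libraries.

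**Figure D1:**
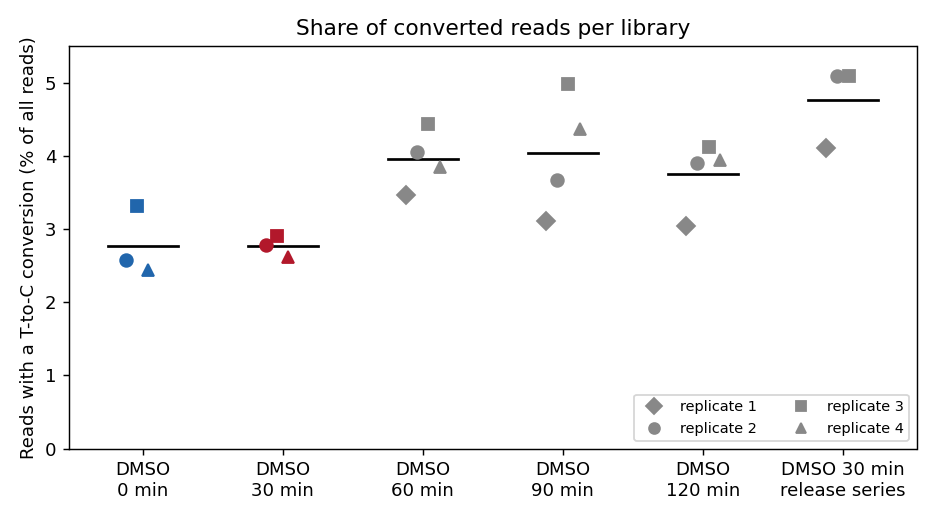
Share of reads with a T-to-C conversion, in percent of all reads in genes, for each DMSO library by time after release, with bars at the group means and symbols for replicate numbers. The 3 libraries at 30 min lie between 2.62% and 2.90%, within the range at 0 min, while the 4 at 60 min lie between 3.47% and 4.43% and the 3 of the second series, at the 30 min its own labels give, between 4.11% and 5.09%.

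The converted share was also taken gene by gene. The 6022 genes taken had at least 1000 reads in each of the 6 libraries and of the 4 at 60 min. Their median share was 2.42% at 0 min and 2.42% at 30 min, against 3.58% at 60 min. All 3 libraries at 30 min lay above all 3 at 0 min for 113 of these genes. All 4 libraries at 60 min did so for 3363. The highest shares were those of processed pseudogenes and near-identical gene copies, and they were alike at all 3 times. TUBBP2, a tubulin pseudogene, had 98.0% of its reads with a conversion at 0 min, 98.0% at 30 min and 97.9% at 60 min. Reads of such copies are shared with related sequences, and counts there are uncertain. Single-base differences from the reference were not masked here, so a share this high and this even over time need not count labelled RNA. The 30 genes with a share above 10% at 0 min held 3.11% of converted reads then and 2.79% at 30 min.

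No gene passed the test for converted reads between 0 and 30 min. Of 14198 genes tested with edgeR's quasi-likelihood test, 0 (0%) had a Benjamini-Hochberg adjusted p under 0.05 in either direction, and 496 (3.49%) had an unadjusted p under 0.05. DESeq2 also called 0, with 460 at an unadjusted p under 0.05. The median log2 change over all genes was 0.00, and the middle 90% of genes lay between −1.11 and 0.58. The precision depended on the level. The 95% interval of the change lay within 1 log2 unit of 0 for 8820 genes (62.1%), for 94.1% of genes at a mean log2 CPM of 5 to 7, and for 6.05% of those under 3. A change of 2-fold was therefore outside the interval for most well expressed genes and inside it for most low ones. All 3 libraries at 30 min lay above all 3 at 0 min for 490 genes (3.45%) and below for 469 (3.30%).

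Genes of mitosis itself had no call and narrow intervals. Of 34 mitotic genes, which build and control the spindle and chromosome segregation, 16 had values above 0, the median was −0.01, and the interval lay within 1 log2 unit of 0 for 33. The single changes ran from −0.23 to 0.24. CDK1, the kinase that drives entry into mitosis, was at 319, 376 and 228 CPM at 0 min and 312, 257 and 285 CPM at 30 min, a difference of −0.11 ± 0.30 (SE) that turned to 0.13 without replicate 3. TOP2A, which untangles DNA, was at 1310, 1164 and 1060 CPM at 0 min and 1175, 953 and 1060 CPM at 30 min, or −0.15 ± 0.28. PLK1, a mitotic kinase, was at 0.18 ± 0.18, and PTTG1, the securin that holds back chromosome separation, at −0.19 ± 0.17. In all 4 genes the libraries of both times overlapped. Together the list took 1.52% ± 0.209 of converted reads at 0 min and 1.45% ± 0.190 at 30 min (n = 3 each). At 60 min, against the same 0 min libraries, 25 of 34 fell and none rose, with a background of 13.9% of genes lower, and TOP2A fell by 1.53 on the log2 scale. With library sizes taken from all reads 5 of the 34 fell and 1 rose at 60 min, when 1.73% of all genes fell, the list median was −0.19 in place of −0.74, and TOP2A fell by 0.98. The 3 libraries of the second series at 30 min had 0.179% to 0.258% of their converted reads in the list, under every one of the 6 libraries here (1.25% to 1.76%). In all reads the list took 0.413% to 0.497% in those 3 libraries, also under every one of the 6 here. They differ from these 6 in series and in DMSO during the block, and the part of each was not tested. Whether the time after release was counted alike in both series is not given in the sources used here, so 30 min may not be the same stage in both.

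Inflammatory and NF-kB genes had the highest values of the well filled lists. NF-kB is a transcription factor held in the cytoplasm by IkB proteins, and its targets include cytokines, chemokines and its own inhibitors. All 17 tested members of 22 listed were above 0, against 50.2% of all genes tested, and their median was 0.98, yet none passed the test, 3 of the 17 (against 3.45% of all genes) had 30 min libraries all above those at 0 min, and no interval lay within 1 log2 unit of 0. In the dTAGV-1 arm, whose libraries are not those of the DMSO arm, the median of the same members was 0.95 and again none passed. That arm had replicates 1 to 4 at 0 min and 1 to 3 at 30 min. Its median without replicate 3 was not taken, and the labels do not say what same-numbered libraries of both arms share. The filter on low counts looks at all groups of the fit, so members low at 0 min could enter through groups where they were higher.

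CXCL8 encodes a chemokine that attracts neutrophils. It had 5.82, 47.3 and 30.0 CPM at 0 min in replicates 2, 3 and 4 and 19.5, 224 and 68.9 CPM at 30 min, from 12, 47 and 33 converted reads to 48, 286 and 118. It was higher at 30 min in 3 of 3 pairs, but replicate 2 at 30 min lay below replicates 3 and 4 at 0 min. The change was 2.00 ± 1.11 (SE, edgeR adjusted p = 1), and 1.48 without replicate 3. CXCL3, a chemokine of the same cluster, was at 1.45, 2.02 and 2.73 CPM and then at 1.63, 23.5 and 8.76 CPM. IL1A, the cytokine interleukin 1 alpha, was at 3.39, 6.04 and 7.28 CPM and then at 7.33, 33.7 and 18.1 CPM, without overlap, a change of 1.81 ± 0.82. TNFAIP3, which encodes an inhibitor of NF-kB signalling, was at 5.82, 6.04 and 4.55 CPM and then at 7.74, 25.1 and 5.26 CPM (1.07 ± 0.51, and 0.33 without replicate 3). The other inhibitor gene NFKBIA was at 0.99 ± 0.66, and NFKB1, a subunit of NF-kB itself, at 0.79 ± 0.43 with groups that did not overlap. Without replicate 3 these changes were 0.62 and 0.37, and that of CXCL3 went from 2.35 to 1.31. In these 6 genes the highest of the 6 libraries was replicate 3 at 30 min. That library was the highest for 15 of the 17 members (88.2%), against 18.2% of all genes tested, and the median of the list without replicate 3 was 0.69.

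Immediate early genes, which serum and stress signals switch on without new protein, gave a like picture with a wider range. Of 30 tested, 25 were above 0, the median was 0.61 and the values ran from −0.86 to 1.91. In the dTAGV-1 arm the median of the list was lower, at 0.26. None passed the test, and 2 of the 30 had all 30 min libraries above those at 0 min, beside 3.45% of all genes tested. NR4A3, a nuclear receptor gene, was at 12.12, 22.2 and 22.8 CPM at 0 min and at 26.9, 149 and 38.0 CPM at 30 min, without overlap, a change of 1.91 ± 0.80 and of 0.98 without replicate 3. FOSB, a subunit of the transcription factor AP-1, was at 34.4, 161 and 116 CPM and then at 94.1, 506 and 189 CPM. The change in FOSB was 1.37 ± 0.75, and its all reads differed by 1.87 on the same scale, so its share of converted reads was no higher, with 19.4% ± 2.52 at 0 min and 15.0% ± 1.52 at 30 min (n = 3 each). KLF4, a zinc finger factor, was at 1.27 ± 0.78, DUSP5, a phosphatase of ERK kinases, at 0.82 ± 0.43, and BHLHE40, a transcriptional repressor counted with the TGF-beta response genes, at 1.01 ± 0.44. Without replicate 3 DUSP5 was at 0.36 and BHLHE40 at 0.61. Replicate 3 at 30 min was the highest library for 23 of the 30 (76.7%), and without replicate 3 the median of the list was 0.28.

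**Figure D2:**
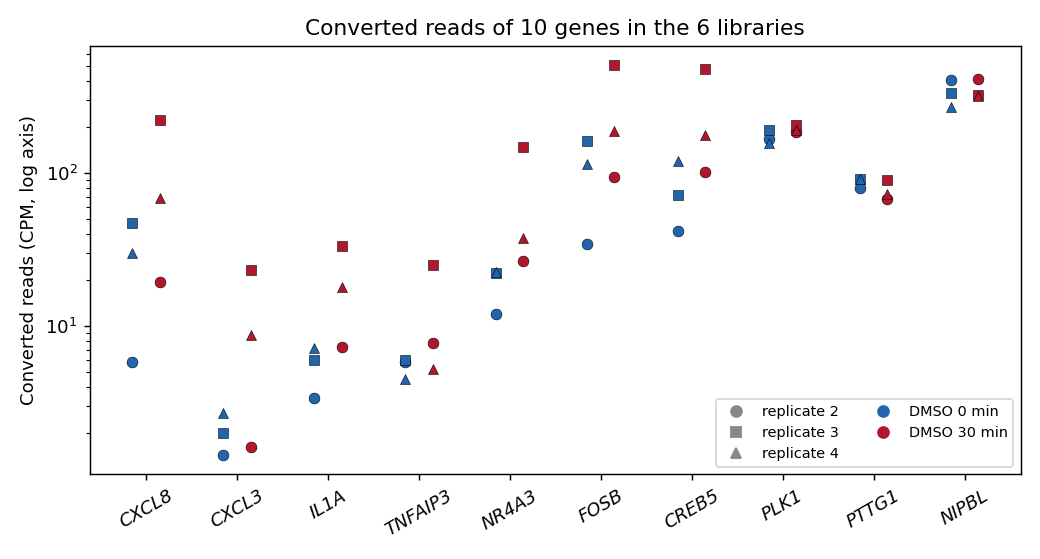
Converted reads in CPM (log axis) of 10 genes in the 3 DMSO libraries at 0 min (blue) and the 3 at 30 min (red), with symbols for replicate numbers. For the inducible genes on the left replicate 3 at 30 min is the highest point, with CXCL8 at 224 CPM and FOSB at 506 CPM, while PLK1, PTTG1 and NIPBL on the right overlap between times.

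The calls on these genes turned with the settings of the test. With the 6 libraries alone and the replicate number as a block, 2 of 10955 genes (0.0183%) passed, CXCL8 at 1.77 with adjusted p = 0.0337 and FOSB at 1.25 with adjusted p = 0.0467. In edgeR without the filter on low counts 35 genes were called higher and 37 lower, 72 of 36240 (0.199%). Among the 35 were 6 of the 17 inflammatory and 7 of the 30 immediate early genes. IL1A had adjusted p = 1 in the filtered test, 0.9999 in DESeq2 on the filtered genes and 0.000602 without the filter. The cause of this difference was not tested.

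The promoters of 3 of these genes are shown because they belong to the inducible genes that the different settings call or leave uncalled. They were chosen after their values were seen. The sequences, from RefSeq (GRCh38.p14), run from 250 bases before to 50 after the annotated start, 5′ to 3′ along the gene. Capitals mark matches, on either strand, to TATAAA, the core promoter box, to CCAAT, or to TGANTCA, the motif that AP-1 binds. They lie at chr4:73740319-73740618 (plus strand) for CXCL8, chr2:112784444-112784743 (minus strand) for IL1A and chr19:45467746-45468045 (plus strand) for FOSB.
CXCL8: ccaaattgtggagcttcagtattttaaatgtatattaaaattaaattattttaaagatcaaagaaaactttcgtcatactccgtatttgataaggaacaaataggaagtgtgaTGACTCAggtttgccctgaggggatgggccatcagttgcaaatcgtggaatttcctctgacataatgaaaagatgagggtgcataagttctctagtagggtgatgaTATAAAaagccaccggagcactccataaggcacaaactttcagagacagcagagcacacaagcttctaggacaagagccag
IL1A: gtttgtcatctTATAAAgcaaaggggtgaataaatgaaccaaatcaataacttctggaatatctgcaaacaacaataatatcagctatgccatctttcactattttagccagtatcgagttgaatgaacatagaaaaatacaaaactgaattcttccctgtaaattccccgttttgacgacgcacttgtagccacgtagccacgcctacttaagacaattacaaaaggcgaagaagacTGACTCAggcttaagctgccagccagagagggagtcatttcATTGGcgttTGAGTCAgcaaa
FOSB: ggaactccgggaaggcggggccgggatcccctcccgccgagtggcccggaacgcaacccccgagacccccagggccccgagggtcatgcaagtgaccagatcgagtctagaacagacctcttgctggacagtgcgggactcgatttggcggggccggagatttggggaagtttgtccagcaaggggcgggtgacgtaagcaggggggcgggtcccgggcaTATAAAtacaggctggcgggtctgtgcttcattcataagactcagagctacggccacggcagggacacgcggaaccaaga
Each holds a TATAAA match, at base −31 from the start in CXCL8, −30 in FOSB and −239 in IL1A. TGANTCA was matched at −137 in CXCL8 and at −12 and 39 in IL1A. The promoters of CXCL2, CXCL3 and NR4A3 matched none of the motifs searched. Of 35116 promoters of this length, 11.5% held TATAAA, 34.6% CCAAT and 7.71% TGANTCA. Also searched were TTTGAA, found in 15.2%, TGACGTCA in 1.85% and the CArG box in 1.29%. None of these 3 was found in CXCL8, IL1A or FOSB. A match is a run of letters, not a measured site.

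Several other groups had medians above 0 with no call. Replication-dependent histone genes, which are made in bulk in S phase, had 26 of 31 tested members above 0 and a median of 0.57. Only 2 intervals lay within 1 log2 unit of 0. HIST1H2AC was at 11.6, 14.1 and 11.8 CPM and then at 15.9, 25.1 and 14.6 CPM, without overlap, a change of 0.54 ± 0.41. It was the only 1 of the 31 with 30 min libraries all above those at 0 min, as were 3.45% of all genes. HIST2H2BE was at 1.14, and at 0.03 without replicate 3. The histone median was 0.09 without replicate 3 and −0.09 in the dTAGV-1 arm. Small nuclear RNAs of RNA polymerase II, the RNA cores of the spliceosome, had 12 members in the data. The 6 tested were all above 0, with a median of 1.07. As in the inflammatory list, members low at 0 min could pass the filter through groups where they were higher. The counts of these RNAs were small. RNU5E-1 had 16, 4 and 8 converted reads at 0 min and 25, 17 and 24 at 30 min, and RNU5B-1 had 0, 2 and 1 and then 4, 10 and 16. For RNU5B-1 the lowest library at 30 min, at 1.63 CPM, lay below the highest at 0 min, at 2.02 CPM.

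Host genes of small nucleolar RNAs, which turn over quickly and so report on current synthesis, had a median of 0.18 with 15 of 17 intervals within 1 log2 unit of 0. SNHG5 was at 63.0, 53.4 and 66.4 CPM and then at 71.3, 107 and 66.6 CPM, without overlap, a change of 0.41 ± 0.24, or 0.11 without replicate 3. SNHG8 was at 0.71 ± 0.36 and GAS5 at 0.11 ± 0.22. At 60 min 13 of the 17 rose and 1 fell, with a background of 22.0% of genes higher, and SNHG5 rose by 2.30 ± 0.24. With library sizes from all reads 14 rose and none fell, when 45.2% of all genes rose. Ribosomal protein genes had a median of 0.05, with 69 of 73 intervals within 1 log2 unit of 0 and 5 members without overlap, all higher as were 3.45% of all genes, among them RPS9 at 0.27 ± 0.16 (0.16 without replicate 3) and RPL37A at 0.33 ± 0.20. Splicing genes (median 0.07, 5 of 28 without overlap, all higher as were 3.45% of all genes), RNA polymerase II and general factors (0.02) and nuclear envelope and pore genes (0.06) lay as close to 0. SRSF1, a splicing factor, was at 0.34 ± 0.16 and TBP, the TATA-binding protein, at 0.34 ± 0.21. SRSF1 was at 0.17 without replicate 3 and TBP at 0.18 without replicate 4. Condensin and cohesin genes had a median of 0.00 and all 23 intervals within 1 log2 unit of 0, and so did all 32 of the cytoskeleton and adhesion genes (median 0.05). G1 and S phase genes were at −0.01, YAP and TEAD targets at −0.02, matrix genes at 0.07, TGF-beta response genes at 0.08, lineage transcription factors at 0.00, nuclear long non-coding RNAs at 0.05 and p53 targets at 0.18. Stress genes had a median of 0.12, with 15 of 19 tested above 0. For 3 of the 19 the 30 min libraries lay all above those at 0 min and for 1 all below, beside 3.45% and 3.30% of all genes. The 1 below was the growth inhibitor gene DDIT4, at −1.37 ± 0.81. Cholesterol synthesis genes had a median of 0.09, with HMGCS1, an early enzyme of the pathway, at 23.8, 22.2 and 26.4 CPM and then at 31.4, 81.4 and 34.5 CPM, a change of 0.98 and of 0.41 without replicate 3. No member of any of these lists passed the test.

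**Figure D3:**
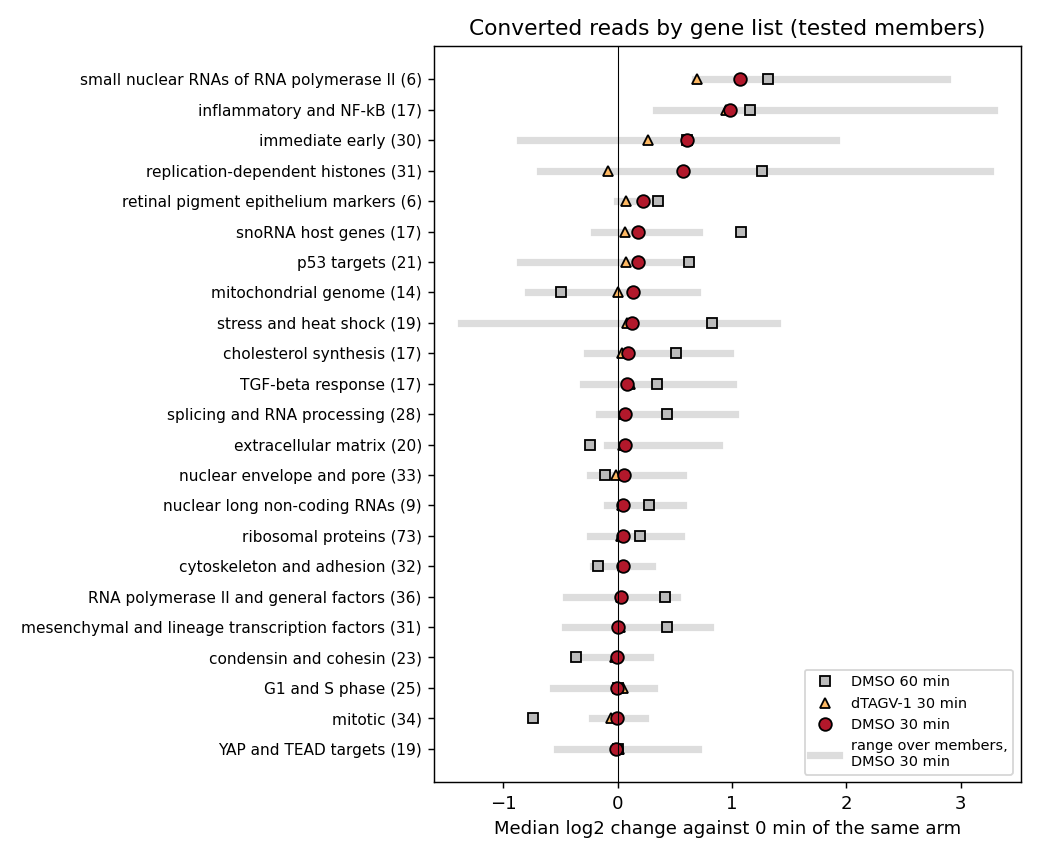
Median log2 change of converted reads against 0 min of the same arm for gene lists with at least 6 tested members, at 30 min in DMSO (red circles), at 30 min with dTAGV-1 (triangles) and at 60 min in DMSO (squares), with a grey bar for the range over members at 30 min in DMSO. The 30 min medians lie near 0 except for 4 lists between 0.57 and 1.07, while at 60 min, on TMM library sizes as used throughout the plot, mitotic genes are at −0.74 and snoRNA host genes at 1.08.

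RNAs made by other polymerases were looked at as references. The mitochondrial genome, read by its own polymerase, took 0.672% ± 0.361 of converted reads at 0 min and 0.606% ± 0.198 at 30 min (n = 3 each, exact permutation p = 0.8). The converted share of mitochondrial reads was 3.06% ± 0.685 and 2.84% ± 0.219, close to that of all genes. MT-CO1, an oxidase subunit, was at 997, 518 and 568 CPM and then at 724, 762 and 715 CPM, and its change of 0.08 ± 0.30 ran from −0.11 to 0.44 with 1 replicate left out. MT-CYB, the cytochrome b gene, was at 0.46 ± 0.40, or 0.25 without replicate 3. Of 19 RNA polymerase III transcripts only the Y RNA gene RNY1 had enough converted reads to be tested, with 24, 11 and 11 reads and then 9, 13 and 20, and its change of −0.41 ± 0.55 turned to 0.06 without replicate 2.

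Under the naming rule the DMSO comparison gave 10 genes per direction, each with groups that did not overlap and an unadjusted p under 0.01, and each with an adjusted p of 1. On the higher side stood CRYM, which encodes a thyroid hormone binding protein, at 4.85, 4.03 and 7.28 CPM and then at 13.8, 38.4 and 12.3 CPM, a change of 1.93 ± 0.63 that was 1.19 without replicate 3. TIMM13, a chaperone gene of mitochondrial import, was at 5.82, 8.06 and 4.55 CPM and then at 10.99, 10.2 and 19.9 CPM (1.17 ± 0.42, and 0.65 without replicate 4). B4GALT3, a galactosyltransferase gene, was at 1.15 ± 0.36 and MAZ, a zinc finger factor gene, at 1.02 ± 0.32. ORMDL3, SNAP29, POP4, NUDT6, GZF1 and TSKU lay between 0.73 and 0.87, with GZF1 at 0.48 without replicate 3. In the dTAGV-1 arm CRYM was at 0.92 and the other 9 lay between −0.12 and 0.49. At 60 min CRYM rose by 2.59 in DMSO.

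On the lower side stood TEX41, a long non-coding RNA gene, at 5.33, 17.1 and 20.0 CPM and then at 1.63, 3.13 and 5.26 CPM, a change of −2.05 ± 0.71. ELMO1, a regulator of Rac signalling, was at 9.21, 22.2 and 21.8 CPM and then at 4.48, 3.13 and 5.84 CPM, or −1.90 ± 0.61. C3orf67-AS1 was at −1.55 ± 0.51. EFCAB5 was at −1.001, and SMG1P6, DTWD2, ADAMTS3 and TXNRD3 lay between −0.99 and −0.73, RAD51B, a gene of homologous recombination, was at −0.42 ± 0.15, and the pseudogene SEPT10P1 at −0.45. Without replicate 4 RAD51B was at −0.19 and ADAMTS3 at −0.55, and without replicate 3 SMG1P6 was at −0.66. SMG1P6 is a pseudogene too, and reads of both can be split with their relatives. C3orf67-AS1 is an antisense gene, and whether counting used strand is not given in the sources used here. With dTAGV-1 TEX41 was at −1.11, ELMO1 at −0.68, and the other 8 between −0.37 and 0.29. For 15 of the 20 named genes a RefSeq promoter of the same window was at hand. CCAAT was found in 4 of the 15 and TTTGAA in 1, and the other 4 motifs in none.

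Long genes had the lowest values. The median change was 0.08 for genes under 10 kb, 0.06 for 10 to 30 kb, 0.02 for 30 to 100 kb, −0.07 for 100 to 300 kb and −0.53 for the 938 genes of 300 kb or more. None of the 938 passed the test, and 84 of them (8.96%) lay below their 0 min range in all 3 libraries, against 3.30% of all genes tested. Most of this size rested on 1 library and on weakly read genes. Without replicate 4 at 0 min, the library with reads in the most genes, the median of the longest class was −0.20. With all libraries kept, it was −0.11 for the 378 members with a mean log2 CPM of at least 5. In all reads the median of the class was −1.04, and −0.21 without replicate 4 at 0 min. Converted reads relative to all reads of the same gene thus gave 0.30 for the class, and 0.04 for those 378 members. PTPRD, a receptor phosphatase gene, was at 8.73, 44.3 and 56.4 CPM at 0 min and at 8.96, 12.5 and 12.3 CPM at 30 min, and its all reads differed by −2.90. DPP10 and the cardiac calcium channel gene RYR2 were at −1.71 ± 0.68 and −1.54 ± 0.67, with all reads at −2.89 and −2.63. With dTAGV-1 the median of the longest class was −0.24. In that arm too replicate 4 at 0 min had reads in the most genes, 43134 against 28158 to 32332 in replicates 1 to 3. The arm had no replicate 4 at 30 min, and its class median without that 0 min library was not taken. At 60 min in DMSO, against all 3 DMSO libraries at 0 min, the median of this class was −1.16. There 534 of the 938 genes fell, when 13.9% of all genes did. Replicate 4 at 0 min was kept in these values, and the class median at 60 min without it was not taken. Over genes of all lengths 1069 fell at 60 min without that library, in place of 1971. With library sizes from all reads the class median was −0.58 at 60 min and 98 of the 938 fell, when 1.73% of all genes did.

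**Figure D4:**
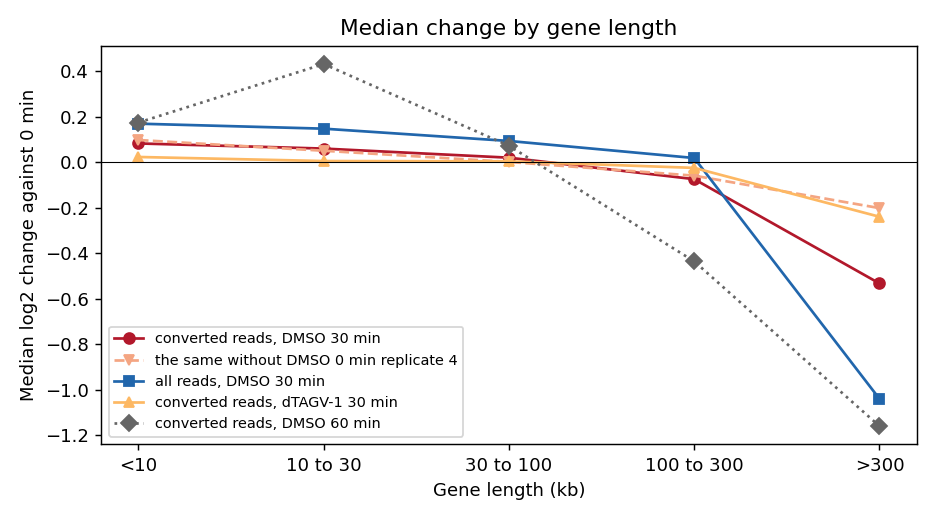
Median log2 change against 0 min by class of gene length (kb), for converted reads at 30 min in DMSO with and without replicate 4 at 0 min, for all reads at 30 min in DMSO, for converted reads at 30 min with dTAGV-1, and for converted reads at 60 min in DMSO. The class over 300 kb is at −0.53 at 30 min, −0.20 without that library and −1.16 at 60 min with that library kept, all on TMM library sizes.

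All reads, which also count RNA made before the label, gave 0 of 27246 genes (0%), with 1722 (6.32%) at an unadjusted p under 0.05. Converted reads relative to all reads of the same gene gave 0 of 14198 (0%), with 460 (3.24%) at an unadjusted p under 0.05. In that measure the inflammatory list kept a median of 0.61 and the immediate early list had 0.12. For IL1A the relative value was 1.27, as its all reads differed by 0.61. Its share of converted reads was 3.73% ± 0.943 at 0 min, 8.70% ± 3.88 at 30 min (n = 3 each) and 10.3% ± 2.35 at 60 min (n = 4). CXCL8 was at 0.58, with a converted share of 19.8% ± 7.07 at 0 min and 28.4% ± 9.33 at 30 min. This difference is smaller than the SD at 30 min and larger than that at 0 min.

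The step from 0 to 30 min was next set beside that of NIPBL-depleted cells. With dTAGV-1, 0 of 14198 genes (0%) passed, with 248 (1.75%) at an unadjusted p under 0.05. The difference of the step between the arms gave 0 (0%), with 216 (1.52%), and the average over both arms gave 0 (0%), with 709 (4.99%). The interval of the difference lay within 1 log2 unit of 0 for 47.4% of genes, so equal steps were not shown for the rest. CREB5, a transcription factor gene, was at 1.71 ± 0.70 in DMSO, 0.86 there without replicate 3, and 1.27 with dTAGV-1. RGCC, a cell cycle regulator gene, was at 1.64 and 1.23, and PTHLH, a parathyroid hormone relative, at 1.34 and 0.99. All 3 are among the 10 genes that the rule names on the higher side of the average, beside CXCL3, IL1A, NR4A3, CRYM, KLF4, NFKBIA and TNFAIP3. For the average the rule takes only genes that change in the same direction in both arms. The shared sign of these 10 was thus set by the choice and is no separate result of the dTAGV-1 arm. For converted reads relative to all reads with dTAGV-1, the lysosomal enzyme gene IDS and the calcium-binding protein gene S100A6 passed (2 of 14198, 0.0141%, adjusted p = 0.00861 for both). With 1 replicate left out this test called 1 gene (without replicate 1 or 2) or 0 (without replicate 3 or 4). In DMSO the converted reads of these genes were at 0.25 ± 0.30 and 0.32 ± 0.41.

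The same test with the same 0 min libraries called many genes at later times. In DMSO 3127 genes rose and 1971 fell at 60 min (35.9% called), 2025 and 1418 at 90 min (24.2%), and 2081 and 1864 at 120 min (27.8%). Without replicate 4, 1710 genes rose and 1266 fell at 60 min, 965 rose and 1055 fell at 90 min, and 1034 rose and 1452 fell at 120 min. Without replicate 2, 2037 rose and 1333 fell at 60 min, while 1186 rose and 1328 fell at 120 min. The balance turned with the scaling. Library sizes from all reads moved the median of all genes at 60 min from 0.02 to 0.60, and 6414 genes rose and 245 fell, with 4997 and 480 at 90 min and 3926 and 867 at 120 min. Without replicate 3 at 120 min, which had 9.24% of its converted reads in the ribosomal DNA unit, 2826 rose and 2717 fell at 60 min. At 30 min the same scaling gave a median of 0.01 over all genes in place of 0.00, and called 0. These comparisons have 4 libraries against 3 and share the 0 min group, so their values are given side by side only. At 60 min TNFAIP3 rose by 3.45, DUSP5 by 2.01 and IL1A by 2.46, and 6 of the 17 inflammatory genes passed, all higher as were 22.0% of all genes (9 of 17 with library sizes from all reads, against 45.2%). CXCL8 at 1.08, NR4A3 at 0.92 and FOSB at 0.78 did not pass at 60 min. At 60 min 13 of the 31 histone genes and 18 of the 73 ribosomal protein genes rose, when 22.0% of all genes did, and at 120 min 24 and 50 rose, when 14.7% did. With library sizes from all reads 15 histone and 53 ribosomal protein genes rose at 60 min, when 45.2% of all genes did. At 120 min 25 and 66 rose on that scaling, when 3926 of 14198 genes did.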

How the data were processed

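For each gene of a library the authors deposited 2 counts, of converted reads and of all reads, and per the file headers also a conversion rate, a fraction that was recomputed here from the counts of T positions. HISAT, Picard and HTSeq were used with hg38, per the submitters' processing notes, and their options are not given in the sources used here. Of 48485 genes named, 199 that can reveal sex were dropped. Genes that a file does not list were set to 0 there, and 1 was added to the deposited starts. Tests ran in R 4.3.3 with edgeR 4.0.16 (quasi-likelihood, TMM, filterByExpr at a minimum count of 10), two-sided, on 36 libraries of the series at 0 to 120 min in both arms, with Benjamini-Hochberg adjustment over all genes and a threshold of 0.05. The fits were run on simulated counts with planted changes and the same spread for all genes. That checks the code and not the power in these libraries. The relative test used log(all reads + 0.5) as offset. Alternatives were DESeq2 1.42.0, other library sizes, no filter, a replicate block, fewer libraries and leaving out replicates. Same-numbered DMSO libraries deviated together most clearly in replicate 2 (r = 0.636), with 0.344 and 0.126 in replicates 3 and 4. Replicate 3 at 0 min was nearly as close to replicate 4 at 30 min (0.302). Replicate 4 at 0 min was nearly as close to replicate 3 at 30 min (0.116). The numbers were taken as pairs from the data and not from the labels, a weak basis for replicates 3 and 4. The libraries compared and the 29 gene lists were chosen with earlier results of these data known. Most genes were named by rule: per direction the 10 largest changes with a mean log2 CPM of at least 3, no overlap and, failing calls, an unadjusted p under 0.01, plus the 3 members of each list with the smallest p, of which a selection is given. CXCL8 was added because an alternative setting called it. CDK1, TOP2A, GAS5 and HIST1H2AC were picked from their lists outside this rule. Promoter sequences and motifs were read with Python 3.11.15.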

Additional observations from a re-analysis of the deposited data

Results flagged for a closer look

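Dixon's test at 95% was run on 13 measures of whole libraries in 4 groups of 4 libraries, DMSO at 60, 90 and 120 min and dTAGV-1 at 0 min, and 8 of 52 tests set a library apart. Chance does so in about 1 of 20, and the measures are related. In DMSO at 120 min it was replicate 3, with 9.24% of converted reads in the ribosomal DNA unit against 0.0225% to 0.0829% in the other 3, and with 13.5% against 3.45% to 3.75% in the 10 most read genes. The same library had 1.55 conversions per converted read (1.21 to 1.26), 0.201% of converted reads in histone genes (0.0838% to 0.0932%) and 1.77% in ribosomal protein genes (1.07% to 1.15%). In DMSO at 60 min it was replicate 3 as well, with 0.200% of converted reads in the ribosomal DNA unit (0.0153% to 0.0315%), a converted share of mitochondrial reads of 4.21% (2.65% to 2.77%) and 1.45% of all reads in mitotic genes (1.60% to 1.61%). Both enter the fit that sets the spread for the comparison of 30 with 0 min, which also called 0 genes without the library at 120 min. Groups of 3 libraries, such as DMSO at 0 and at 30 min, are too small for this test.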

How the results depend on the processing

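With the replicate block, 0 genes passed in DMSO (690 at an unadjusted p under 0.05), and the block also left 0 calls for all reads, relative to all reads, with dTAGV-1, in the average and in the difference of the arms. With the 6 libraries alone and the block 2 genes passed. DESeq2 size factors, DESeq2's own test, library sizes from all reads or without mitochondrial genes, the 6 libraries or the DMSO libraries alone, and leaving out any replicate all gave 0 for converted reads in DMSO. Without the filter on low counts 72 genes were called in DMSO, 20 with dTAGV-1, 172 in the average and 7 in the difference of the arms, and the cause was not tested. With 1 replicate left out the dTAGV-1 comparison gave 0 to 1 called genes (IDS without replicate 2), and the DMSO comparison at 60 min 2976 (without replicate 4) to 4456 (without replicate 1) in place of 5098. The difference in converted share ran from −0.118 to 0.193 percentage points, and exact sign flips of the pairs gave p = 1. The median of genes over 300 kb ran from −0.797 to −0.201, with 1 replicate or library left out, and was −0.201 without DMSO 0 min replicate 4. Leaving out replicates turned the sign of 5 of the genes named, MT-CO1 (−0.114 to 0.441), NIPBL (−0.017 to 0.111), CDK1 (−0.296 to 0.133), GAS5 (−0.0954 to 0.289) and RNY1 (−0.847 to 0.0564). The other genes named kept their direction in converted reads under the alternatives checked gene by gene. Fits without single 0 or 120 min libraries were not among these. Genes with a mean log2 CPM under 3 had a median SE of 0.642, against 0.201 above 7. The interval lay within 1 log2 unit of 0 for 6.05% of the former and 96.3% of the latter. For most low genes a 2-fold change was thus inside the interval. The alternatives that leave out single 0 or 120 min libraries were chosen after seeing the data.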
